A study of Mus musculus with 10 samples.

Results

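The 44 genes described here encode the proteins that copy chromosomal DNA, from the complexes that mark and license origins to the replisome, its sliding clamp and the enzymes that supply deoxynucleotides. They were taken from a fixed list of gene symbols, and all 44 were found among the 21934 symbols of each deposited table. The study set Wdr4-targeted mouse cells against controls by ribosome profiling, in which nuclease-protected fragments (footprints) count ribosomes on mRNA and input polyadenylated RNA gives the amount of that mRNA. Its title asks how Wdr4, the partner of the tRNA 7-methylguanosine methyltransferase Mettl1, affects translation efficiency.

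There were 5 conditions, each with 1 input and 1 footprint library, so no difference between 2 libraries has a replicate check. Immortalized bone marrow-derived macrophages (iBMDM), described as monoclonal lines, were labelled WT, sgWdr4-1 (guide 1) or sgWdr4-2 (guide 2). The targeted lines had received lentivirus with a guide RNA against Wdr4 and puromycin selection for a week or longer. Whether the WT line carried a vector or went through selection is not given in the labels. Tumour-associated macrophages (TAM) were sorted for F4/80 from liver tumours of the mouse hepatoma line Hepa1-6, grown in mice labelled Wdr4 ff (here ff) or Wdr4 cKO (a knockout restricted to myeloid cells, here cKO). The Cre driver, strain, age and number of mice behind each TAM library are not given in the labels. Levels are in TPM, a unit that divides by gene length and sets every library to 1 common total. It keeps no read depth, so the depth is unknown and no counting interval can be given.

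Several facts about the libraries bear on every value below. Input Wdr4 was 44.6 TPM in WT, 31.3 TPM under guide 1, 44.5 TPM under guide 2, 39.8 TPM in ff and 20.9 TPM in cKO. Wdr4 footprints were higher in each targeted library than in its control, at 13.3, 24.3 and 26.9 TPM in the 3 iBMDM lines and 8.51 and 17.7 TPM in ff and cKO. Conditions are therefore named as they are labelled, and each direction is one between libraries so labelled. Of 12 macrophage marker genes, 10 were under 1 TPM in every input, with Adgre1, which encodes F4/80, and Aif1 listed at 0. The 12 genes summed to between 1.80 and 4.91 TPM in the inputs, so the labelled cell type is not seen in these markers. Of 10 fibroblast and stellate cell genes, 6 were at 5 TPM or more in every input, summing over the list to between 3579 and 5246 TPM. That list was split, as 4 of its genes fell short of 1 TPM throughout the inputs, Lum among them at 0. From a list of 10 hepatocyte and hepatoma genes, 2 reached 5 TPM in all inputs and 7 stayed below 1 TPM. The hepatocyte and hepatoma list summed to between 99.1 and 169 TPM. All 21 listed mitotic genes were at 5 TPM or more in every input. The guide 1 footprint library stood apart, with 0.781% of its TPM from mitochondrially encoded genes against 9.94% to 14.6% in the other 4 footprint libraries.

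Before S phase, the origin recognition complex, Cdc6 and Cdt1 load the MCM helicase, a ring of the subunits Mcm2 to Mcm7, onto DNA. Geminin (Gmnn) blocks Cdt1 once replication has begun. In S phase, Cdc45 and the GINS complex turn the loaded ring into the active helicase, primase and polymerase alpha start each strand, and polymerases delta and epsilon extend it on the clamp PCNA. Transcription of many of these genes is driven by E2F factors as cells commit to divide, and many of their proteins are scarce in resting cells.

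Promoter letters that E2F factors are known to bind, which the choice of members did not use, were more frequent in the members' promoters than over all promoters, though most of the members' windows lacked them. RefSeq promoter windows on GRCm38.p6, from 250 bases before to 50 bases after the start, were at hand for 36 of the 44 genes, with 44 windows in all. A total of 17 windows (38.6%) held at least 1 of the motifs TTTCGCGC, TTTGGCGC, TTTCCCGC and TTTGGCGG on either strand. Over all 32851 windows of that length the share was 2.37%. The motif CCAAT, on either strand, was in 56.8% of the members' windows and 37.4% of all. Such a match is a description of letters, not of a bound site, and the motifs can overlap each other, as in both promoters here. The 100-base stretches below are from the 2 members with at least 2 E2F motif matches before the start, with those matches in capitals, and they show what these letters look like. The first, at chr1:128359735-128359834 on the minus strand, has 3 matches, and the second, at chr8:75109278-75109377 on the plus strand, has 2.
Mcm6: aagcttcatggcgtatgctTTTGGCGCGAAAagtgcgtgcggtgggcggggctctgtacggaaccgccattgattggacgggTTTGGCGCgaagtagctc
Mcm5: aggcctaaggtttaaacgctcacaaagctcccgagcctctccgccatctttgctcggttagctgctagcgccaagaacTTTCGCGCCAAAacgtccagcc

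Input RNA of the replication genes was nearly level across conditions. The median member was at 74.4 TPM in WT, 81.1 TPM under guide 1, 76.0 TPM under guide 2, 78.4 TPM in ff and 81.3 TPM in cKO. No member reached a 2-fold difference (1 on the log2(TPM + 1) scale) in any of the 3 comparisons, where 0.318% of all 7536 iBMDM genes tested were at least 2-fold higher and 0.0796% lower under guide 1. Under guide 2 these shares were 0.0265% and 0.0398%, and in cKO 1.42% and 0.169% of 7101 genes. Log2 changes of the measured members ran from -0.23 (Pola1) to 0.38 (Prim2) under guide 1, from -0.16 (Orc3) to 0.25 (Orc4) under guide 2, and from -0.37 (Rrm1) to 0.38 (Pola1) in cKO. Their medians were 0.14, 0.03 and 0.02, beside 0.08, 0.01 and 0.06 for all genes. Members with and without the E2F letters in their promoter had median input changes of 0.16 (16 genes) and 0.06 (18 genes) under guide 1, 0.03 and 0.02 under guide 2, and 0.08 (16 genes) and -0.02 (17 genes) in cKO. For footprints the same medians were 1.45 and 0.82, -0.04 and -0.01, and -0.62 and -0.37, as a description with no test. Pcna, the sliding clamp, had the highest input RNA of the list in every library, between 418 and 461 TPM, and Gins3, of the GINS complex, the lowest, between 19.8 and 20.7 TPM.

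Footprints were a different matter. The median member had 26.1 TPM of footprints in WT, 53.5 TPM under guide 1, 28.5 TPM under guide 2, 24.5 TPM in ff and 17.5 TPM in cKO. Together the 44 genes took 0.234% of footprint TPM in WT and 0.454% under guide 1, against 0.235% under guide 2, 0.222% in ff and 0.179% in cKO. The guide 1 library was thus the high one of the 5 and cKO the low one, while the other 3 were close to each other. Their share of input TPM stayed between 0.455% and 0.494%. In bulk libraries fewer cells in a state and less RNA or fewer ribosomes per cell cannot be told apart.

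**Figure D1:**
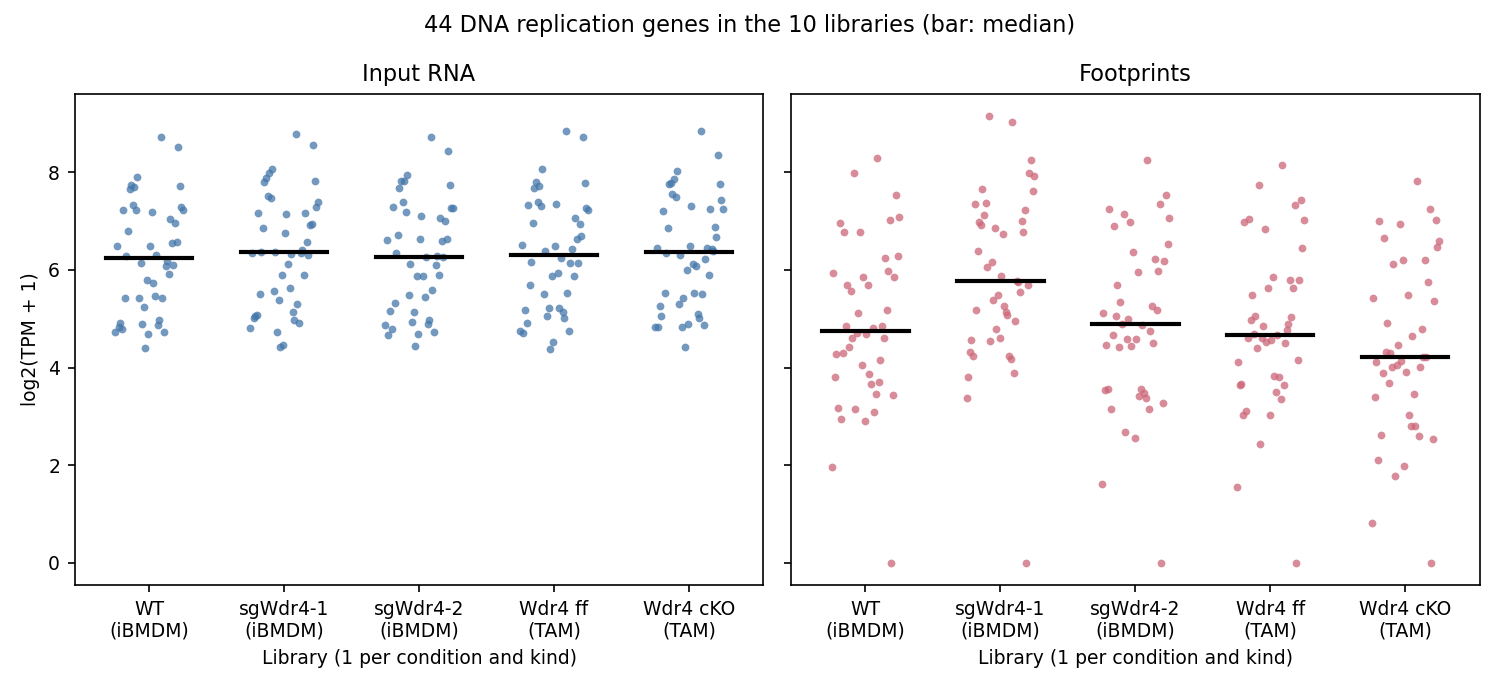
Level of each of the 44 replication genes in each library on the log2(TPM + 1) scale (vertical axis), with input RNA on the left and footprints on the right. Each point is a gene and each bar the median of the 44 genes. Input medians are nearly level, while the footprint median is highest under guide 1 (53.5 TPM) and lowest in cKO (17.5 TPM), and the point at 0 in each footprint library is Fen1.

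A filter asked for a mean of at least 5 TPM in input and in footprints over a table, which 42 members passed for iBMDM and 41 for TAM. Orc1, an ATP-binding subunit of the origin recognition complex, failed in both, with input between 25.4 and 28.2 TPM. Its footprints were 2.90 TPM in WT, 9.35 TPM under guide 1, 2.05 TPM under guide 2, 1.96 TPM in ff and 0.770 TPM in cKO. Mcm10, an initiation factor, failed in the TAM table alone, with footprints of 4.44 TPM in ff and 2.44 TPM in cKO. Orc5, Pola1 and Lig1 had cKO footprints under 5 TPM and passed for TAM through ff. Counts of members lower in cKO thus include genes that passed through their higher library. Fen1, the nuclease that trims Okazaki fragment flaps, failed in both because its footprints were listed at 0 in all 5 libraries beside input between 116 and 127 TPM. Of 2994 genes with at least 50 TPM of input in all 5 inputs, 12 had footprints listed at 0 in all 5 footprint libraries. Rpl5, a ribosomal protein gene that every cell uses, was among these 12, so no statement on the translation of Fen1 is made.

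Under guide 1, footprints were at least 2-fold higher for 22 of the 42 measured members (52.4%) and lower for 1, where 16.1% and 10.3% of all genes tested were. The median change was 1.07 on the log2 scale, beside 0.09 for all genes. Under guide 2 no measured member was 2-fold apart in footprints in either direction (3.03% and 4.63% of all genes), and the median was 0.00 beside -0.03. Between cKO and ff, 1 of 41 was at least 2-fold higher and 5 were lower (2.73% and 8.15% of all genes), with a median of -0.43 beside -0.20. With a pseudocount of 5, a filter of 20 TPM or either of 2 rescalings, 1 or 2 members were lower. The count over all genes fell as well, from 579 to 258 (pseudocount of 5) and 170 (filter of 20 TPM). Rescaled to the same median it was 355, and 552 with mitochondrially encoded, ribosomal protein and histone genes removed. With libraries set to the same median the member median was -0.21, beside 0.01 for all genes. The 2 guides were set against the same WT library, so their values are given side by side only. Under both guides in the same direction, 0 members were 2-fold apart in input (0.0133% of all genes higher, 0.0265% lower), footprints (0.743%, 1.43%) or translation efficiency (0.902%, 2.04%).

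Translation efficiency, taken as log2(footprint TPM + 1) minus log2(input TPM + 1), followed the footprints. It was at least 2-fold higher under guide 1 for 17 of 42 members (40.5%) and lower for 1, against 14.8% and 13.7% of all genes, with a median change of 0.83 beside 0.01. Under guide 2 the counts were 0 and 0 (3.53% and 4.87% of all genes) and the median -0.05, the same as for all genes. In cKO 1 of 41 was higher and 8 (19.5%) were lower, against 4.03% and 16.0% of all genes. That share of lower members was near the background. With a pseudocount of 5, a filter of 20 TPM or either of 2 rescalings, 2 to 4 members were lower. The count over all genes fell as well, from 1135 to 728 (pseudocount of 5) and 399 (filter of 20 TPM). Rescaled to the same median it was 672, and 1016 with mitochondrially encoded, ribosomal protein and histone genes removed. The filter of 20 TPM kept 23 members measured in both tables. The median of -0.41 lay beside -0.25 for all genes.

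A model that pools the 2 guide lines against the 1 WT line called no member. With limma, 0 of 42 members passed an adjusted p of 0.05 in input, footprints or translation efficiency, and 0 had an unadjusted p under 0.05. Over all 7536 genes it called 0 in input (65 at an unadjusted p under 0.05), 2 higher (0.0265%) and 1 lower (0.0133%) in footprints, and 3 higher (0.0398%) and 2 lower (0.0265%) in translation efficiency. Orc2 came closest among the members, in translation efficiency (log2 change -1.46, SE 0.80, limma adjusted p = 1.00 after Benjamini-Hochberg). Its 2 guide lines were both lower than WT. With 1 residual degree of freedom, a gene's own spread is only that between the guides, and WT is taken to vary by the same amount. The empirical Bayes step drew that spread toward a trend over all genes. In translation efficiency the SE of the measured members thus lay between 0.76 (Pcna) and 0.84 (Gins3). Mcm4 was among them, although its guide changes were 2.51 and -0.05. The labels do not say whether the lines were grown as separate cultures. These p-values therefore rest largely on a spread shared over genes in these libraries, not on each gene's own spread between guides.

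All 6 subunits of the MCM helicase had more footprints under guide 1, each by more than 2-fold, and fewer in cKO. Mcm7 was just under 2-fold (0.99) with mitochondrially encoded, ribosomal protein and histone genes removed. Mcm4 footprints were 20.3 TPM in WT, 138 TPM under guide 1, 20.6 TPM under guide 2, 24.7 TPM in ff and 11.8 TPM in cKO, beside input between 159 and 188 TPM. Mcm2 followed the same course, with footprints of 27.9, 119 and 32.2 TPM in WT, guide 1 and guide 2 and 30.6 and 18.9 TPM in ff and cKO. In both genes WT, guide 2 and ff were close, guide 1 alone was high and cKO was the lowest. Mcm3 footprints were 50.6, 199.98, 50.7, 43.8 and 29.0 TPM in the same order, and those of Mcm5 46.2, 163, 39.6, 32.4 and 18.7 TPM. Footprints of Mcm6 spanned less, at 23.4, 65.7, 28.8, 20.04 and 15.2 TPM. Changes in translation efficiency under guide 1 were 2.51 for Mcm4, 1.91 for Mcm2, 1.83 for Mcm3, 1.504 for Mcm5 and 1.19 for Mcm6, while Mcm7, at 1.00 after rounding, lay just under 2-fold. Under guide 2 they ran from -0.88 (Mcm7) to 0.31 (Mcm6), and in cKO from -1.56 (Mcm7) to -0.55 (Mcm3).

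Mcm7 stood apart from its partners in level. Its footprints were 254 TPM in WT, 569 TPM under guide 1, 141 TPM under guide 2, 211 TPM in ff and 69.0 TPM in cKO. That made it the highest of the 6 subunits in every footprint library. TPM allows levels of different genes to be set side by side per length, and the 6 subunits enter the ring in equal numbers. Input TPM of the highest and lowest subunit differed by 1.44-fold (cKO) to 1.71-fold (ff). Footprint TPM differed by 5.84-fold (cKO) to 12.5-fold (WT). Without Mcm7 the footprint range among the remaining 5 was 2.19-fold (ff) to 3.05-fold (guide 1). How reads that map to several genes, or to RNAs within a host gene, were counted is not stated in the labels.

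**Figure D2:**
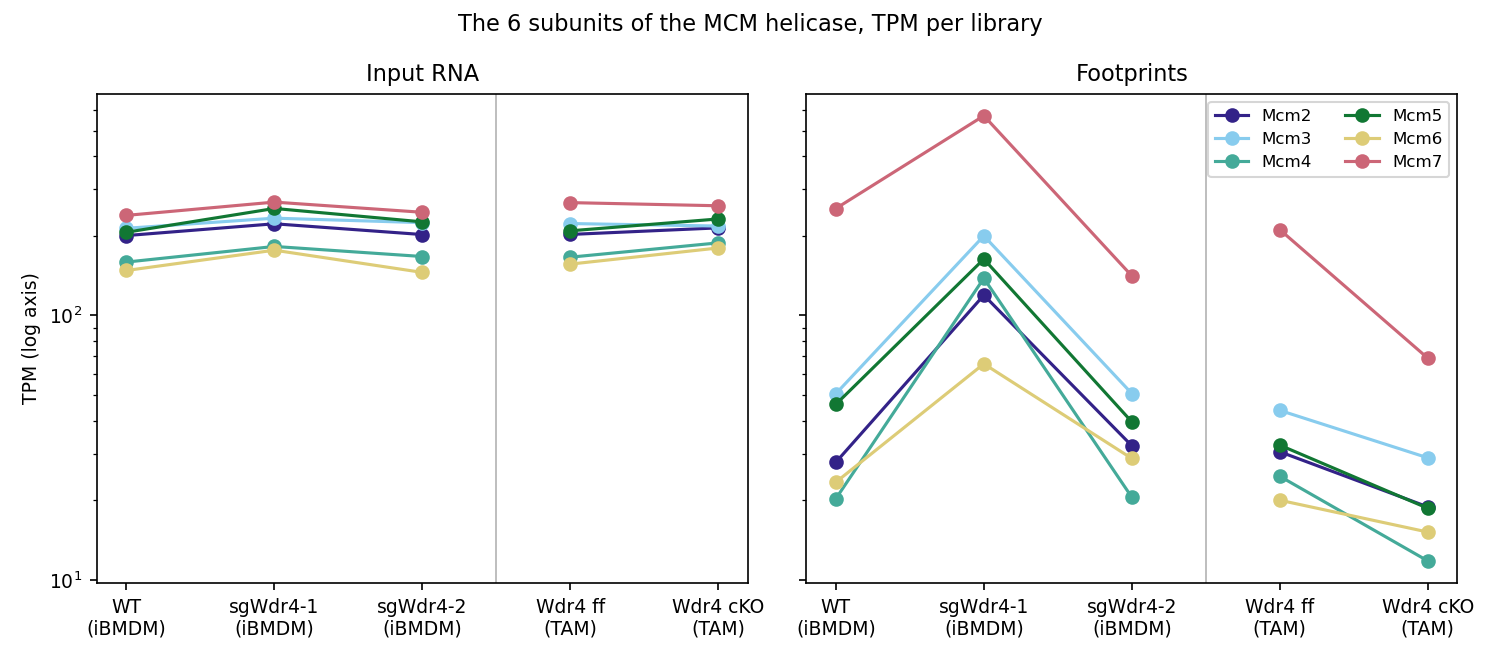
TPM (log axis) of Mcm2 to Mcm7 in input RNA (left) and footprints (right) in the 5 conditions, 1 library per point, with lines joining libraries of the same table. Input is nearly flat for all 6 genes, footprints peak under guide 1 and are lowest in cKO, and Mcm7 lies above the others in every footprint library (69.0 to 569 TPM).

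The licensing factors that load the ring were split from their inhibitor. Cdc6 footprints were 6.71 TPM in WT, 35.2 TPM under guide 1 (5.25-fold), 7.83 TPM under guide 2, 7.61 TPM in ff and 5.12 TPM in cKO. Cdt1 footprints were 18.7 TPM in WT, 82.4 TPM under guide 1 (4.399-fold), 24.2 TPM under guide 2, 23.5 TPM in ff and 13.7 TPM in cKO. Both were high under guide 1 alone. Geminin, which binds and inhibits Cdt1, had footprints of 109, 126, 118, 130.2 and 99.9 TPM in the same order, and its translation efficiency change was 0.13 under guide 1 against 2.14 for Cdc6 and 1.99 for Cdt1. Input lay between 39.1 and 50.6 TPM for Cdc6, 70.4 and 82.1 TPM for Cdt1 and 103 and 123 TPM for Gmnn.

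Origin recognition genes did not move as a block, and Orc2, like Gins4 and Rfc5 to a smaller degree, was lower under guide 1 and higher in cKO in efficiency. Orc2 footprints were 60.4 TPM in WT, 13.1 TPM under guide 1, 33.9 TPM under guide 2, 16.4 TPM in ff and 42.3 TPM in cKO, with input between 80.4 and 96.6 TPM. It was the lone member at least 2-fold lower under guide 1 (translation efficiency change -1.98) and the lone member at least 2-fold higher in cKO (1.38), with -0.94 under guide 2. The 2 control libraries also lay apart for Orc2, at 60.4 TPM in WT and 16.4 TPM in ff, in separate tables. Orc5 footprints were 7.999 TPM in WT, 17.9 TPM under guide 1, 10.7 TPM under guide 2, 7.19 TPM in ff and 3.31 TPM in cKO, and its efficiency change in cKO was -1.08. Orc4 footprints were 18.4, 22.8 and 21.0 TPM in WT, guide 1 and guide 2 and 11.7 and 16.2 TPM in ff and cKO. Efficiency changes of Orc3, Orc4 and Orc6 were 0.15 to 0.47 under guide 1, -0.12 to 0.24 under guide 2 and -0.38 to 0.35 in cKO. Orc6 had the highest footprints of the complex in every library, between 123 and 163 TPM.

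Among the factors that activate the helicase, Mcm10 and Cdc45 were at least 2-fold higher under guide 1, as was most of the MCM ring, and no GINS gene was. Cdc45 footprints were 25.3 TPM in WT, 71.0 TPM under guide 1, 22.9 TPM under guide 2, 23.2 TPM in ff and 15.6 TPM in cKO. Mcm10 footprints were 7.92, 22.4 and 5.46 TPM in WT, guide 1 and guide 2. Their efficiency changes under guide 1 were 1.23 and 1.24. Gins2 had the highest translation efficiency of the measured members in every condition, between 1.47 and 1.86, from footprints of 109, 115, 126, 113 and 122 TPM and input of 34.1 to 41.7 TPM. Gins4 was lowest under guide 1 and higher in both other targeted libraries than in their controls, with footprints of 56.5, 43.9, 81.3, 48.8 and 72.6 TPM. Gins1 and Gins3 ran in the direction of the ring at a smaller size, with efficiency changes of 0.43 and 0.71 under guide 1 and -0.16 and -0.41 in cKO.

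The polymerases and primase had higher footprints under guide 1 in 8 of 8 genes, 6 of them at least 2-fold, of which Pole was not with a pseudocount of 5 and Prim1 was not under either rescaling. Pola1, the catalytic subunit of polymerase alpha, had footprints of 6.47 TPM in WT, 23.4 TPM under guide 1, 4.93 TPM under guide 2, 7.12 TPM in ff and 2.96 TPM in cKO. Its efficiency change was 1.93 under guide 1, -0.34 under guide 2 and -1.42 in cKO. Pold1, the catalytic subunit of polymerase delta, was at 11.7, 34.0, 10.8, 10.3 and 5.97 TPM of footprints, with 1.29, -0.10 and -1.02. Its partner Pold2 was nearly level, at 26.9, 32.9, 28.3, 24.3 and 24.0 TPM. Prim2, the large primase subunit, was at 13.6, 37.1, 9.77, 13.2 and 7.20 TPM, high under guide 1 alone. For Prim1, the catalytic subunit, and Prim2, guide 1 efficiency changes were 1.11 and 1.01, with Prim2 at -0.58 under guide 2 and -0.98 in cKO. Pola2, Pole and Pole2 were at 0.93, 0.88 and 0.72 under guide 1.

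Clamp and clamp loader genes moved less. Pcna had the highest footprints of the list in WT, guide 2, ff and cKO, at 313, 303, 281 and 226 TPM, with 523 TPM under guide 1, and efficiency changes of 0.68, -0.06 and -0.29. No gene of this group was 2-fold apart in efficiency under either guide. Rfc1, the large subunit of the loader, had footprints of 12.002 TPM in WT, 13.7 TPM under guide 1, 7.83 TPM under guide 2, 11.5 TPM in ff and 5.04 TPM in cKO, an efficiency change of -1.03 in the last. Rfc5 ran the other way, with footprints of 75.1, 46.0, 73.4, 54.3 and 73.1 TPM and efficiency changes of -0.67, 0.01 and 0.41. Rfc2 footprints were 16.7 TPM in WT, 30.1 TPM under guide 1, 25.8 TPM under guide 2, 21.7 TPM in ff and 15.2 TPM in cKO, the highest member change under guide 2 (0.59). Rfc3 footprints were 27.9, 53.7, 37.1, 26.2 and 26.8 TPM in the same order. Efficiency changes of Rfc3 and Rfc4 were 0.64 and 0.94 under guide 1, and at 0.38 and -0.19 under guide 2.

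Single-strand binding, strand joining and nucleotide supply each held genes that were at least 2-fold higher under guide 1. Rpa1, the large subunit of replication protein A, had footprints of 35.3 TPM in WT, 128 TPM under guide 1, 35.2 TPM under guide 2, 31.97 TPM in ff and 17.5 TPM in cKO. Rpa2 footprints were 62.4, 108, 61.7, 48.2 and 53.0 TPM, and those of Rpa3, the smallest subunit, 129, 149.7, 161, 159.7 and 150.4 TPM. Neither partner was 2-fold apart in any comparison. Lig1, the ligase that seals Okazaki fragments, was at 9.78 TPM in WT, 51.02 TPM under guide 1, 8.72 TPM under guide 2, 16.8 TPM in ff and 4.77 TPM in cKO. Its efficiency change was 1.92 under guide 1 and -1.61 in cKO, the lowest of the members there. Rrm1, the large subunit of ribonucleotide reductase, had footprints of 56.6, 251, 71.2, 54.8 and 40.2 TPM, while its partner Rrm2 was at 184, 305, 183, 171 and 129.5 TPM. The 2 subunits were thus 3.26-fold apart in WT footprints and 1.21-fold apart under guide 1. Tyms, which makes thymidylate, and Tk1, which salvages thymidine, had efficiency changes of 1.34 and 0.69 under guide 1, 0.25 and -0.08 under guide 2, and -0.15 and -0.45 in cKO.

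**Figure D3:**
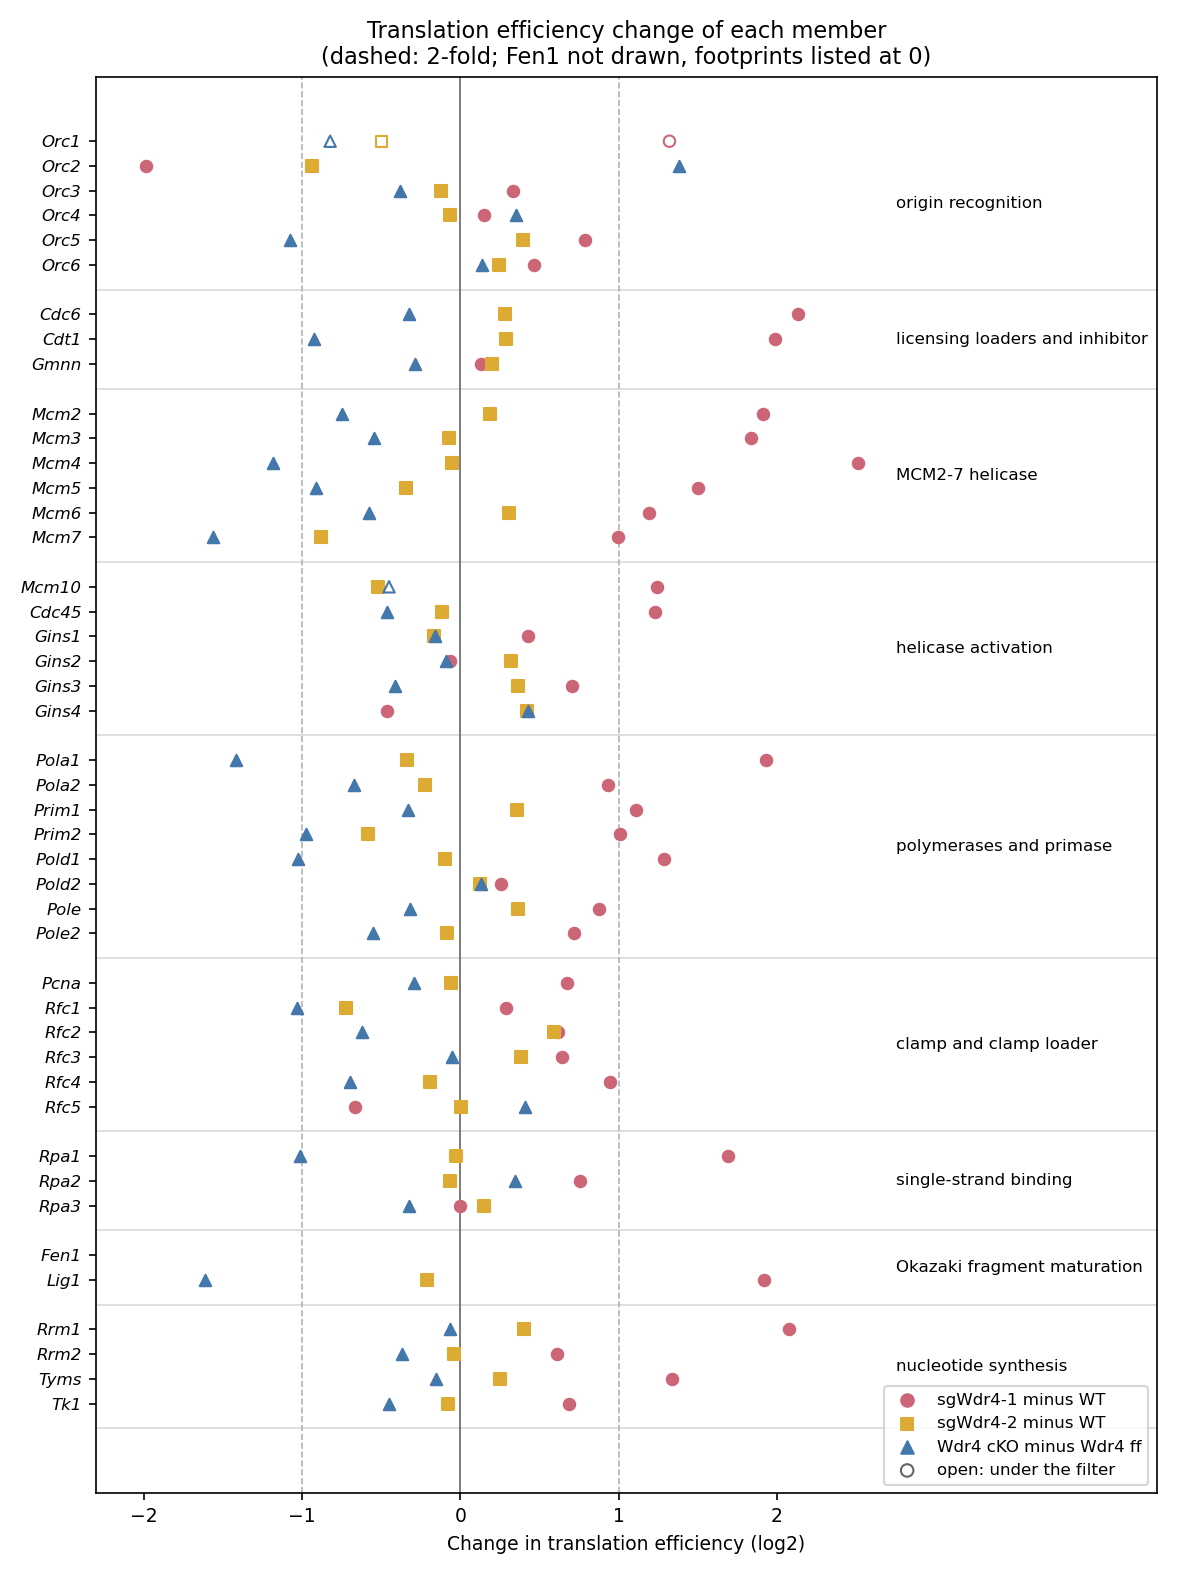
Change in translation efficiency (log2, horizontal axis) of each member by role for guide 1 against WT (circles), guide 2 against WT (squares) and cKO against ff (triangles), 1 library pair per point, with dashed lines at 2-fold. Most circles lie to the right of 0 (37 of 42 measured) and most triangles to the left, squares lie within the dashed lines, and Orc2 is reversed.

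The same values can be read as levels. In WT the median member had a translation efficiency of -1.51, beside -0.58 for all genes tested, and 26 of the 41 members measured in both tables lay under that all-gene median. In ff the values were -1.51 and -0.59 with 29 of 41, under guide 2 -1.39 and -0.63 with 28, and in cKO -1.81 and -0.85 with 30. Under guide 1 the members stood at -0.40, beside -0.43 for all genes, with 18 of 41 under the all-gene median. The order of the members was alike in WT and ff (Pearson r = 0.93 and Spearman rho = 0.91 across 41 genes). Across all 6927 genes measured in both tables the same correlation was r = 0.92. Genes share libraries and are not independent replicates, so no p is given. In WT the lowest member was Lig1 at -3.15, with Mcm4 at -2.91, Mcm2 at -2.80 and Rrm1 at -2.66. Rpa3 at 0.93 was next to Gins2 at the other end.

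Members with low efficiency in the separate ff library tended to be those with the larger guide 1 change (rho = -0.65 across 41 members, and -0.29 across all 6927 genes). Guide 1 and cKO share no control library, and here the members ran in opposite directions. Of 41 members, 32 (78.0%) were above 0 under guide 1 and below 0 in cKO, as were 32.6% of all genes. With libraries set to the same median 26 (63.4%) were, beside 23.7% of all genes. With a filter of 20 TPM it was 15 of 23 (65.2%), beside 29.5%. The joint share follows in large part from the separate counts. Of the measured members, 37 of 42 were above 0 under guide 1 and 34 of 41 below 0 in cKO. Mcm4, Pola1, Pold1, Rpa1 and Lig1 were at least 2-fold higher under guide 1 and 2-fold lower in cKO, as were 2.17% of all genes. Of these, Pola1 and Lig1 passed the filter for TAM through ff, with cKO footprints of 2.96 and 4.77 TPM. The count of members 2-fold apart in both depended on the settings. It was Lig1 alone (0.881% of all genes) with a pseudocount of 5 and Rpa1 alone (1.57%) with a filter of 20 TPM. With libraries set to the same median it was Lig1 and Pola1 (1.21%), and with a pseudocount of 0.5 it was 6 members (2.48%). Lig1, Mcm4 and Pola1 (1.58%) remained with mitochondrially encoded, ribosomal protein and histone genes removed. The correlation of the 2 changes was r = -0.70 (rho = -0.61) across the members and -0.02 across all genes. For guide 2 and cKO it was 0.18 (rho = 0.36) across the members and 0.49 across all genes.

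**Figure D4:**
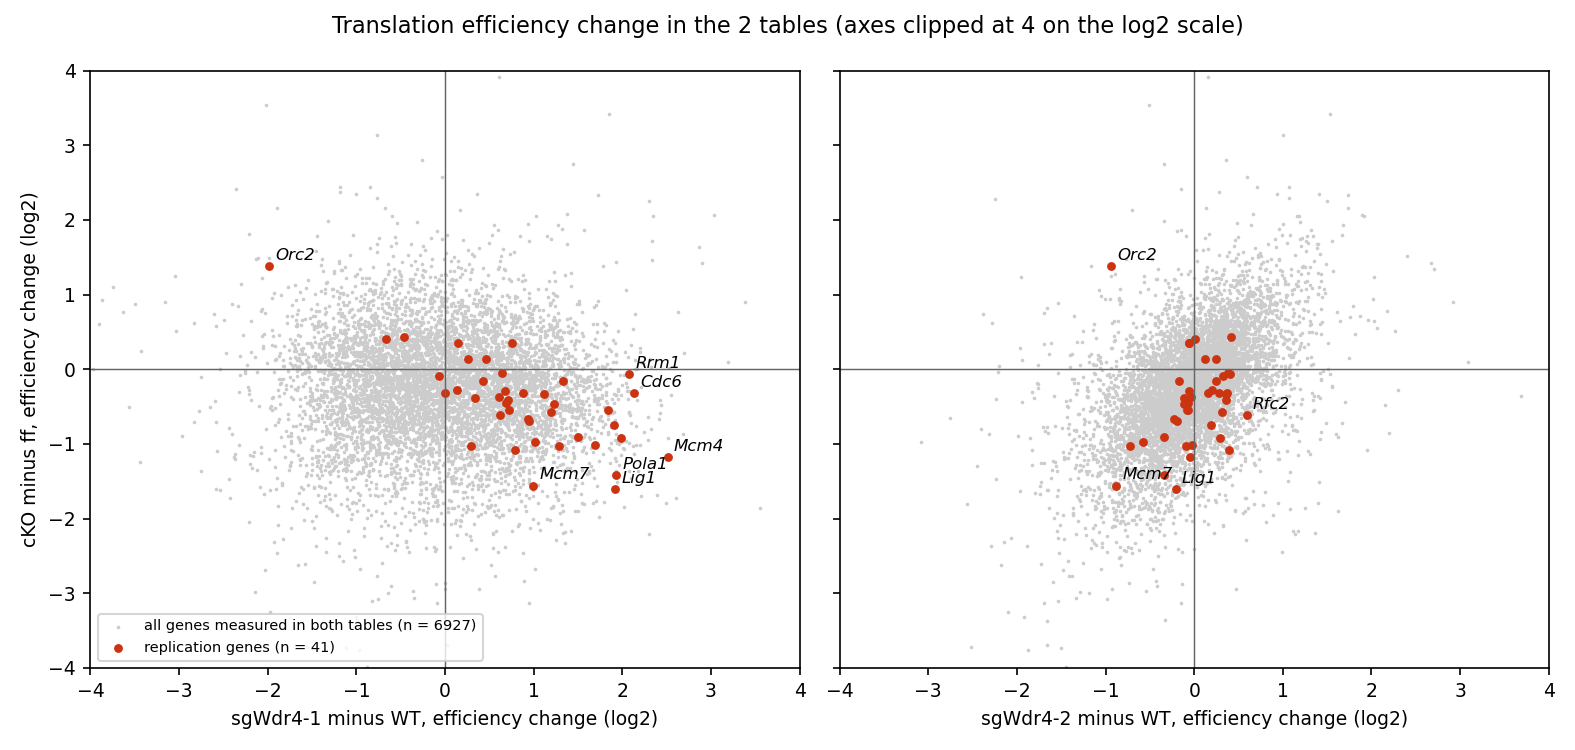
Change in translation efficiency in cKO against ff (vertical axis, log2) plotted against that under guide 1 (left) and guide 2 (right), with grey points for the 6927 genes measured in both tables and red points for 41 replication genes. Red points fill the lower right of the left panel, where 32 of 41 lie, and gather near 0 on the horizontal axis of the right panel; 14 and 7 genes lie outside the axes.

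The guide 1 values rest on the footprint library that stood apart. With TPM rescaled after removal of mitochondrially encoded, ribosomal protein and histone genes, the member medians under guide 1 were 0.93 for footprints and 0.79 for translation efficiency, beside -0.09 and -0.12 for all genes. Other properties of that library, such as fragment length and read number, were not tested. Without guide 1, no measured member was 2-fold apart in footprints or translation efficiency in the iBMDM table.

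Beyond the 44 genes, 64 other genes of replication and its control were listed by role, of which 56 were measured for iBMDM and 54 for TAM. Under guide 1, 14 of 56 were at least 2-fold higher in translation efficiency and 7 lower, with a median of 0.17. Over all genes 14.8% were higher and 13.7% lower, so the share that was lower was near the background. Genes of chromatin assembly at forks were higher in 5 of 10, among them Uhrf1 (1.94), which recognises hemimethylated DNA, and Dnmt1 (1.86), which methylates it. Both were lower in cKO (-1.22 and -1.26). In strand maturation and topoisomerases 3 of 5 were higher, led by Top1, a DNA topoisomerase (2.41), with footprints of 15.6 TPM in WT and 59.7 TPM under guide 1. Fork protection genes were higher in 2 of 8, Clspn (1.49), a checkpoint adaptor, and Chtf18 (1.20), of an alternative clamp loader. Of the nucleotide pool genes, 3 of 10 were higher, with Shmt1 at 1.65 and Cad, which starts pyrimidine synthesis, at 1.55. None of 4 further polymerase subunits was 2-fold apart under guide 1, and Pold4 (-1.23) and Pold3 (-1.16) were lower in cKO. For Pold4 the cKO input change was 0.75 and the footprint change -0.48, and for Pold3 they were 0.07 and -1.09.

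Firing factors included a gene, Topbp1, that was at least 2-fold lower in translation efficiency in all 3 targeted libraries. The share of all genes lower in all 3 was not computed. In the single comparisons 13.7% (guide 1), 4.87% (guide 2) and 16.0% (cKO) of all genes were lower. Topbp1 and Rrm2b were the 2 of the 56 measured genes at least 2-fold lower in efficiency under both guides. Over all genes 2.04% were, so a count of 2 was near the background. Topbp1, a scaffold for origin firing and the ATR checkpoint, had footprints of 49.7 TPM in WT, 16.3 TPM under guide 1, 18.2 TPM under guide 2, 36.6 TPM in ff and 16.3 TPM in cKO. Its input was between 75.9 and 88.2 TPM, and its efficiency changes were -1.63, -1.29 and -1.28. Dbf4, which activates the firing kinase Cdc7, was at -1.45 under guide 1, -0.62 under guide 2 and -0.42 in cKO. Rrm2b, the p53-induced subunit of ribonucleotide reductase, was at -1.09, -1.30 and -0.89. Its footprints were 19.9, 11.1, 9.52, 8.72 and 8.14 TPM in WT, guide 1, guide 2, ff and cKO. Rrm2b input was higher in each targeted library, at 8.575, 10.9, 10.9, 7.73 and 14.2 TPM in the same order. Footprint changes of Rrm2b were -0.78, -0.99 and -0.09, so its cKO efficiency change lay mostly in input (0.80). Both guide values of these genes rest on the shared WT library. Wdhd1, a polymerase alpha anchor, was at -1.40 under guide 2 and 0.37 under guide 1.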

How the data were processed

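The authors deposited 2 tables of TPM, 1 for the iBMDM libraries and 1 for the TAM libraries, each of 21956 rows. Per the submitters' processing notes, fastp 0.18.0 and Bowtie2 were used, with no role stated. For the genome build, annotation and quantifier behind the TPM, the answer is not given in the sources used here. For a repeated symbol the row with the highest mean was kept.

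From the deposited TPM, log2(TPM + 1) was computed, a scale on which low genes show smaller changes, and compared within a table only. Genes averaging 5 TPM or more in input and in footprints were tested, 7536 and 7101 in the 2 tables. The size rule was a log2 change of at least 1. limma 3.58.1 in R 4.3.3 (empirical Bayes with a trend on mean expression, Benjamini-Hochberg over all genes, two-sided) compared the guide lines with WT, and its script was tested on simulated data. Other steps ran in Python 3.11.15 with pandas 2.3.3, numpy 2.4.6 and, for figures, matplotlib 3.10.9.

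The members and lists were chosen with earlier results of these data known. Values in every library were to be given for the 5 highest and 5 lowest members by efficiency change in each comparison, for members past the size rule in input or under both guides and for those under the filter. Of the other lists, up to 2 genes per list and comparison were named, and further members by role. E2F motif stretches are shown for members with at least 2 matches before the start site, since sequence after it is not printed. Alternatives were other pseudocounts, filters and scalings, leaving out a guide, and other limma settings.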

Additional observations from a re-analysis of the deposited data

Results flagged for a closer look

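For 2 members both guides lay on the same side of their control and cKO on the other. Each change was at least 0.5 on the log2 scale. The share of all genes with this pattern was not computed, so the count has no background beside it. The difference between the cell systems was not tested. For Orc2 footprints the log2 changes were -2.12 (guide 1), -0.81 (guide 2) and 1.31 (cKO), and for its translation efficiency -1.98, -0.94 and 1.38. For Rfc2 translation efficiency they were 0.62 (guide 1), 0.59 (guide 2) and -0.62 (cKO). Both guide values of a gene share the WT library.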

How the results depend on the processing

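Recomputed counts and medians stayed within 1.5 times (counts) or 0.1 on the log2 scale (medians) in 209 cases and moved in 23. A count that was 0 both times was scored as unchanged, as were the 2-fold input counts of either guide and the limma calls. The 209 cases therefore include counts that could show little movement. With a pseudocount of 5, the guide 1 medians became 0.85 for footprints and 0.70 for efficiency, and 2 members were at least 2-fold lower in cKO in footprints and 2 in efficiency. With a filter of 20 TPM the guide 1 footprint median was 0.92 and the cKO efficiency median -0.28. In cKO 1 (footprints) and 2 (efficiency) members were lower. Lig1 and Prim2, among others, passed that filter through guide 1, with footprints under 20 TPM in WT and under guide 2. That filter is therefore no independent check of the guide 1 median. With all libraries rescaled to the same median, guide 1 medians were 0.034 for input and 0.94 for footprints. That rescaling left cKO medians of -0.21 for footprints and -0.13 for efficiency, with 2 and 3 members lower, and moved the all-gene cKO efficiency median from -0.25 to 0.04. With mitochondrially encoded genes and those of ribosomal proteins and histones removed, the guide 1 footprint median was 0.93, and cKO medians were -0.32 and -0.26 with 2 and 4 members lower. Of single members, calls in footprints or efficiency were lost in cKO for Orc5, Mcm4, Pola1, Pold1, Rfc1 and Rpa1, and under guide 1 for Orc5, Mcm7, Mcm10, Prim1, Prim2 and Pole. Each was lost with a pseudocount of 5 or under a rescaling, and 0 reversed. The filter of 20 TPM also took low members out of the count. Under each of these settings the count of all genes lower in cKO fell too. The cause was not tested.

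The counts of 0 under both guides became, without guide 2, 22 higher and 1 lower in footprints and 17 higher and 1 lower in efficiency. They remained at 0 without guide 1. limma called 0 members under every alternative run. Translation efficiency is itself paired within a line. The interaction fit with no replicate block called 0 members (lowest adjusted p = 1.00), and a random line effect could not be estimated for any gene. Depth is unknown, so low footprint values carry an error that cannot be stated.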

Other observations

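Genes that control the transcription of replication genes had a guide 1 median below 0. Of 10 measured E2F and RB family regulators, 4 were at least 2-fold lower in translation efficiency under guide 1 and 1 was higher, with a median of -0.51, beside 0.83 for the replication genes. Over all genes 13.7% were lower and 14.8% higher, so the share that was higher was near the background. E2f1, an activator of S phase genes, had footprints of 20.5 TPM in WT, 7.99 TPM under guide 1, 18.9 TPM under guide 2, 20.1 TPM in ff and 21.6 TPM in cKO. Lin54, of the DREAM and MuvB complex, was at 10.502, 3.03, 8.20, 8.27 and 11.3 TPM in the same order, and Lin9 of the same complex had the highest change of the list under guide 1 (1.02). E2f1 and Lin54 were the lowest of the list under guide 1, at -1.45 and -1.47. Under guide 2 and in cKO the list medians were -0.08 and -0.13, beside -0.05 and -0.25 for all genes. In these comparisons 0 of 10 and 0 of 9 genes were 2-fold apart. Over all genes 3.53% were higher and 4.87% lower under guide 2, and 4.03% and 16.0% in cKO.

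Mitotic genes had a guide 1 median above 0 and a cKO median below 0. Of 21 measured, 9 were at least 2-fold higher in translation efficiency under guide 1 and 1 was lower, with a median of 0.77, where 14.8% and 13.7% of all genes were. Their medians were -0.18 under guide 2 and -0.63 in cKO, beside -0.05 and -0.25 for all genes. Cdc20, an activator of the anaphase-promoting complex, was the highest under guide 1 (2.29), and Mki67, the proliferation marker Ki-67, the lowest under guide 2 (-1.08). No difference between these lists was tested.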
